A study of Mus musculus with 10 samples.

Results

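The genes described here encode the chains of 5 cytokine receptors of helper T cells: Ifnar1 and Ifnar2 of the type I interferon receptor, Ifngr1 and Ifngr2 of the interferon-gamma receptor, Il18r1 and Il18rap of the IL-18 receptor, Il10ra and Il10rb of the IL-10 receptor, and Il27ra and Il6st of the IL-27 receptor. They were chosen by name, as the rows of the count table whose Ensembl IDs carry these 10 symbols. All 10 were found among the 49671 genes of the table, and all 10 were among the 13699 genes with enough counts to be tested. RNA was sequenced from TH2 cells, the helper T cells that make IL-4, IL-5 and IL-13, which had been polarised in culture from naive CD4+ T cells of wild-type C57BL/6 mice and were collected on day 5. The control group held 3 libraries from mice given standard chow that supplied vitamin D3 at 400 IU per kg. The deficient group held 7 libraries from mice that were bred and raised without ultraviolet light and ate a diet without vitamin D metabolites. Animals of both groups were offspring of the second generation, and the cells received no further treatment. The labels give neither age nor sex, and they do not say that the libraries of a group came from separate mice, so the p-values given here reflect the spread among the samples alone, and that spread may be technical. Batch 1 held 2 control and 5 deficient libraries, and batch 2 held 1 control and 2 deficient libraries.

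These receptors each pair a chain that binds the cytokine with a partner that is needed to signal. The interferon, IL-10 and IL-27 receptors carry JAK family kinases on their tails and switch on transcription factors of the STAT family, among them STAT3 for IL-10 and IL-27. The IL-18 receptor belongs to the IL-1 receptor family and signals through MyD88 and IRAK kinases to NF-kappaB instead. In helper T cells interferon-gamma, IL-27 and, together with IL-12, IL-18 are known for promoting or sustaining the TH1 programme, whereas IL-10 restrains inflammation.

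Library totals ran from 5800698 to 13433276 counts, and the 3 control libraries were the shallowest. Every member was well covered, with 40 to 1924 counts in each library. The T cell markers Cd3e, Cd3d, Cd3g, Cd4 and Trac summed to between 1602 and 1611 CPM (counts per 1000000 counts of the library) in controls and between 1006 and 1149 CPM in deficient cells. Most of this difference was Cd4, whose mean went from 723 to 335 CPM. Trac went from 312 to 236 CPM, Cd3e from 53.8 to 27.9 CPM and Cd3g from 232 to 204 CPM. Cd3d stood at 286 and 278 CPM. The TH2 markers Gata3, Il4, Il5, Il13 and Ccr4 summed to 266 to 311 and to 295 to 402 CPM. This sum hides opposite moves of its genes. From control to deficient means, Il13 rose from 80.9 to 200 CPM and Il5 from 15.4 to 28.7 CPM. Ccr4 fell from 122 to 62 CPM and Gata3 from 62.0 to 36.7 CPM, while Il4 stood at 15.1 and 16.5 CPM. Xist, which is transcribed from the inactive X chromosome of females, reached 657 CPM in deficient library 1 and 733 CPM in deficient library 3, with no more than 0.345 CPM elsewhere. Along the second principal component, which held 12.3% of the variance of all tested genes, deficient libraries 5, 6 and 7 stood apart from the other 4, although library 5 is labelled batch 1.

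Between the diets, 6 of the 10 receptor genes fell in the deficient cells, 1 rose and 3 did not pass the test. Il18r1 fell the most, 4.34-fold in mean CPM, followed by Il18rap (2.66-fold), Ifngr2 (1.97-fold), Ifnar2 (1.85-fold), Ifnar1 (1.64-fold) and Il27ra (1.45-fold). Ifngr1 rose 1.90-fold. Il10ra, Il10rb and Il6st did not pass. By edgeR's quasi-likelihood test with batch as a term and a Benjamini-Hochberg adjusted p below 0.05, 58.0% of all genes tested differed, 28.6% being lower and 29.4% higher in deficient cells, so a call as such was common. The median log2 fold change of the 10 genes was -0.71, beside 0.02 over all genes tested. In the 7 genes that passed, the 7 deficient libraries lay on one side of all 3 controls, as they did for 50.8% of all genes tested. In bulk cultures, fewer cells of a type and less RNA per cell cannot be told apart. The 6 genes that fell did so at every alternative setting of the analysis, while the call of Ifngr1 was less stable, as described with that gene.

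**Figure D1:**
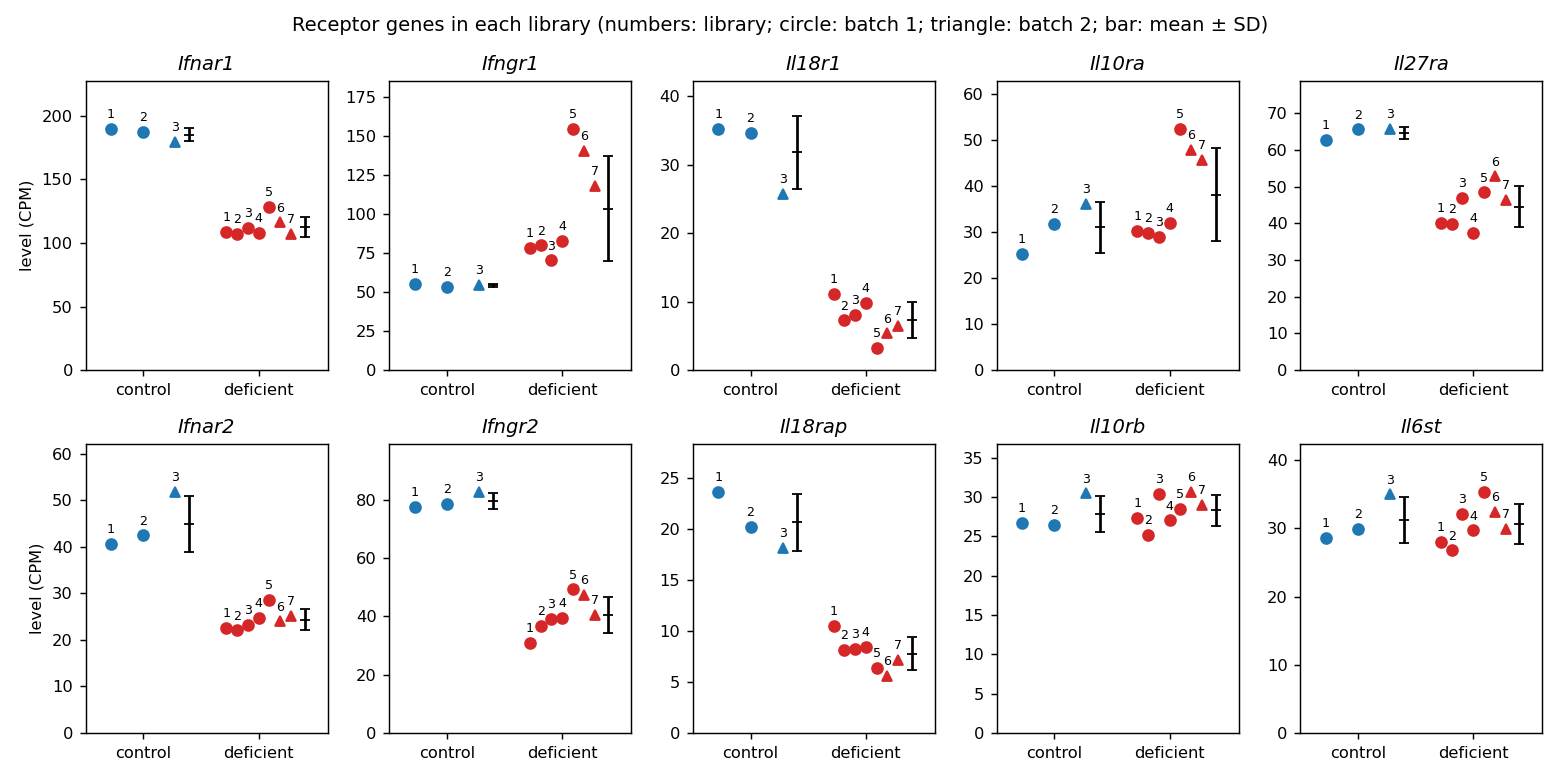
Level of each receptor gene in CPM (vertical axes from 0) in the 3 control and 7 deficient libraries, numbered as in the text, with circles for batch 1, triangles for batch 2 and the mean ± SD beside each group. In Ifnar1, Ifnar2, Ifngr2, Il18r1, Il18rap and Il27ra the deficient libraries all lie below the controls, in Ifngr1 all lie above, and in Il10ra, Il10rb and Il6st the groups overlap.

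Both chains of the type I interferon receptor fell. Ifnar1 (ENSMUSG00000022967, chromosome 16, 91485238 to 91507441, plus strand of GRCm38) encodes the chain that carries the kinase TYK2. Control libraries 1 to 3 read 189, 187 and 179 CPM of it. It stood at 107 CPM at the lowest, 109 at the median and 129 at the highest of the 7 deficient libraries. The groups did not overlap, and deficient library 5 was the highest of its group. The log2 fold change was -0.81 (SE 0.0664, adjusted p = 8.46e-08, edgeR). Ifnar2 (ENSMUSG00000022971, chromosome 16, 91372783 to 91405589, plus strand) encodes the chain of high affinity for the interferons. The controls held 40.7, 42.5 and 51.8 CPM, against 22.1, 24.0 and 28.7 CPM at the lowest, median and highest deficient library. Again the groups lay apart, with control library 3 the highest. Its log2 fold change was -0.96 (SE 0.0922, adjusted p = 4.05e-07, edgeR). The log2 ratio of Ifnar1 to Ifnar2 differed by 0.16 between the diets and did not pass (two-sided exact permutation p = 0.075, and 0.0938 adjusted over the 5 receptor pairs compared).

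The chains of the interferon-gamma receptor moved in opposite directions. Ifngr1 (ENSMUSG00000020009, chromosome 10, 19591949 to 19610229, plus strand) encodes the chain that binds the cytokine. It stood at 55.2, 53.4 and 54.6 CPM in the controls. The deficient libraries 1 to 7 read 78.4, 79.9, 70.3, 82.9, 154, 140 and 118 CPM. The 3 controls were nearly equal, all 7 deficient libraries lay above them, and libraries 5, 6 and 7 lay far above the other 4. The log2 fold change was 0.84 (SE 0.275, adjusted p = 0.0301, edgeR), and it was 0.43 without deficient libraries 5 to 7 (adjusted p = 0.000338), an alternative added once the data had been seen. The call was lost when control 1 (0.94), control 2 (0.88), control 3 (0.69) or deficient library 6 (0.78) was left out and within batch 1 (0.69, adjusted p = 0.168); within batch 2, where the spread of the lone control is taken from the deficient libraries, the change was 1.19 (adjusted p = 4.57e-08). Ifngr2 (ENSMUSG00000022965, chromosome 16, 91547072 to 91565623, plus strand) encodes the partner chain that brings JAK2 into the complex. Its control values were 77.7, 78.7 and 82.8 CPM, and its values in deficient libraries 1 to 7 were 31.0, 36.8, 39.1, 39.6, 49.3, 47.3 and 40.6 CPM. All deficient libraries lay well below the controls. Its log2 fold change was -1.06 (SE 0.103, adjusted p = 6.69e-07, edgeR).

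Other quantities also differed between deficient libraries 5 to 7 and the other deficient libraries. The CD8 T cell markers Cd8a and Cd8b1 summed to 7.59 to 16.4 CPM in controls, to 28.3 to 49.3 CPM in deficient libraries 1 to 4 and to 155, 148 and 119 CPM in libraries 5, 6 and 7; Cd8a was at 0 in control library 1. The B cell markers Ms4a1, Cd79a, Cd79b and Pax5 summed to 2.93, 4.17 and 50.4 CPM in the controls, to 10.7 to 24.2 CPM in deficient libraries 1 to 4 and to 89.8, 86.6 and 96.5 CPM in libraries 5 to 7. Control library 3, with the high B cell sum, read 54.6 CPM of Ifngr1, between the other controls. Ifng itself, the gene of the ligand, stood at 3.62, 2.24 and 7.58 CPM in the controls, 36.8 to 63.1 CPM in deficient libraries 1 to 4 and 198, 189 and 146 CPM in libraries 5 to 7. The part of these markers and of the ligand in the level of Ifngr1 was not tested.

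The promoters of the interferon receptor genes whose levels parted are shown from the RefSeq table of GRCm38.p6, as the 250 bases before the annotated start of Ifngr1 and Ifngr2, which moved in opposite directions, and of Ifnar2, which lies on chromosome 16 like Ifngr2 and fell like it. The windows are chr10:19591699-19591948, chr16:91546809-91547058 and chr16:91372533-91372782, all on the plus strand and read 5′ to 3′; capitals mark matches to the motifs named after them.
Ifngr1: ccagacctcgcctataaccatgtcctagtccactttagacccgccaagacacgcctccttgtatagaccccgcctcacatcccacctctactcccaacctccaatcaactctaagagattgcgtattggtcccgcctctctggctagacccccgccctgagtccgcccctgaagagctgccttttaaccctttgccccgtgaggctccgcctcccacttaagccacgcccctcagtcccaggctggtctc
Ifngr2: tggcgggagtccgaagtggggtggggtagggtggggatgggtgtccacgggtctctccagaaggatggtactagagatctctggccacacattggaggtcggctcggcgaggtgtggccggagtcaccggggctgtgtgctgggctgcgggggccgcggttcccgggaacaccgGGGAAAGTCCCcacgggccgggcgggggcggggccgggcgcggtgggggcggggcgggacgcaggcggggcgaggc
Ifnar2: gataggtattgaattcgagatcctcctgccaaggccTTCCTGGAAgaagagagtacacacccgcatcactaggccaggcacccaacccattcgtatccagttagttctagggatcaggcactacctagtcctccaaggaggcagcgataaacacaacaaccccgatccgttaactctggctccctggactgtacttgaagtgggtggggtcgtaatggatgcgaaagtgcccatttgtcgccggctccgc
On both strands 6 motifs were searched: the STAT site GAS (TTCNNNGAA), the interferon response element ISRE, the direct repeat bound by the vitamin D receptor with a spacer of 3 bases, a GATA site (AGATAA), a T-box site (TCACACCT) and the kappaB site. The window of Ifngr1 held none of them. Ifngr2 held overlapping kappaB letters on both strands, at positions -76 to -67 and -75 to -66 from the start, and kappaB letters stand in 17.6% of the 32851 promoter windows of the table. Ifnar2 held a GAS match at positions -214 to -206, as did 7.02% of all windows. Of the other windows searched, those of Ifnar1, Il18rap and Il6st held no match, and of the 3 windows of Il18r1 the third held GAS letters at 2 places, TTCTGGGAA and TTCCCAGAA. The exact vitamin D repeat occurred in 2 of all windows, and in 0 of the 9 windows of these genes. Letters so rare cannot show whether the receptor binds near these genes. A match is a description of the letters only, and Il10ra, Il10rb and Il27ra were not searched. Ifnar1 also lies on chromosome 16 and fell, and its window, without a match, is not printed, so the printed windows do not show how common matches are.

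The IL-18 receptor genes had the lowest levels left in the deficient cells. Il18r1 (ENSMUSG00000026070, chromosome 1, 40465552 to 40500854, plus strand) encodes the chain that binds IL-18. Levels were 35.2, 34.6 and 25.7 CPM for the controls, compared with 11.1, 7.28, 8.11, 9.77, 3.21, 5.36 and 6.45 CPM in deficient libraries 1 to 7. Every deficient library lay below the lowest control, and libraries 5, 6 and 7, where Ifngr1 was highest, had the lowest values. The log2 fold change was -2.22 (SE 0.264, adjusted p = 3.83e-05, edgeR). Il18rap (ENSMUSG00000026068, chromosome 1, 40515362 to 40551705, plus strand) encodes the accessory chain without which the receptor does not signal. Here the controls read 23.6, 20.2 and 18.1 CPM, compared with 10.5, 8.11, 8.25, 8.44, 6.33, 5.58 and 7.15 CPM in deficient libraries 1 to 7. The groups were again apart and the order of the deficient libraries was much like that of Il18r1, except that library 5 did not stand out. The log2 fold change was -1.52 (SE 0.150, adjusted p = 5.86e-07, edgeR). Depth limits the precision here, since Il18r1 had 40 counts in deficient library 5.

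Neither chain of the IL-10 receptor passed the test. Il10ra (ENSMUSG00000032089, chromosome 9, 45253837 to 45269149, minus strand) encodes the chain that binds IL-10. Control levels were 25.2, 31.7 and 36.1 CPM, beside 30.3, 29.7, 28.9, 31.9, 52.3, 47.8 and 45.6 CPM in deficient libraries 1 to 7. Libraries 1 to 4 lay within the range of the controls, and libraries 5 to 7 lay above every other library. The log2 fold change was 0.23 (SE 0.187, adjusted p = 0.317, edgeR), and it was -0.00 without libraries 5 to 7 (adjusted p = 0.977). The CD8 and B cell marker sums given with Ifngr1 separate the same 3 libraries from the other 4 deficient ones, and their part in the level of Il10ra was not tested. Il10rb (ENSMUSG00000022969, chromosome 16, 91406164 to 91425834, plus strand) encodes the shared chain that also serves the receptors of IL-22 and the type III interferons. The 3 controls read 26.7, 26.5 and 30.5 CPM, beside 25.2, 28.5 and 30.7 CPM at the lowest, median and highest deficient library. The ranges nearly coincided, and the fitted difference was -0.06 on the log2 scale (SE 0.0854, adjusted p = 0.585, edgeR).

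Of the IL-27 receptor, the specific chain fell and the shared chain did not pass. Il27ra (ENSMUSG00000005465, chromosome 8, 84030294 to 84042589, minus strand) encodes the chain known as WSX-1. Controls read 62.8, 65.6 and 65.6 CPM, against 37.4, 46.3 and 52.8 CPM at the lowest, median and highest deficient library. All deficient libraries lay below the controls. The log2 fold change was -0.62 (SE 0.0919, adjusted p = 3.68e-05, edgeR). Il6st (ENSMUSG00000021756, chromosome 13, 112464070 to 112510086, plus strand) encodes gp130, the signalling chain shared with the receptors of IL-6, IL-11, LIF and oncostatin M. Its controls read 28.6, 30.0 and 35.0 CPM, against 26.8, 29.9 and 35.3 CPM at the lowest, median and highest deficient library. The groups overlapped along their whole range, and the fitted difference was -0.11 on the log2 scale (SE 0.0964, adjusted p = 0.358, edgeR). The chains that other cytokine receptors share, Il10rb and Il6st, thus had the smallest fitted differences of the 10 genes, and their patterns over the 10 libraries were also the closest of all pairs of the 10 genes (root mean square difference of centred log2 values 0.0775).

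Compared per length, as CPM per kilobase of annotated exon, the order of the 10 genes differed between the diets. In controls Ifnar1 led at 31.2 ± 0.889 CPM per kilobase (SD, n = 3), followed by Ifngr2 at 21.2 ± 0.710, Ifngr1 at 19.1 ± 0.320 and Il27ra at 18.5 ± 0.469. The libraries of Ifngr1 and Il27ra overlapped, while the other neighbours at the top lay apart. Ifnar2 came next at 13.5 ± 1.80 CPM per kilobase (SD, n = 3), then Il10ra, Il10rb and Il18r1 between 6.61 and 8.86, with overlapping libraries from neighbour to neighbour. Il18rap and Il6st, which overlapped, were lowest at 3.06 ± 0.412 and 2.81 ± 0.301 CPM per kilobase (SD, n = 3). In deficient cells Ifngr1 stood first at 36.3 ± 11.9 CPM per kilobase (SD, n = 7), above Ifnar1 at 18.9 ± 1.30 in every library. Ifngr2 came after 4 other genes at 10.8 ± 1.64 CPM per kilobase (SD, n = 7), and its libraries overlapped those of Il10ra. The IL-18 receptor genes moved to the end of the order, with Il18r1 at 1.52 ± 0.554 and Il18rap at 1.15 ± 0.238 CPM per kilobase (SD, n = 7), overlapping each other and below every library of Il6st. Exon lengths count all annotated transcripts of a gene, so these levels depend on how many of its exons are used.

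**Figure D2:**
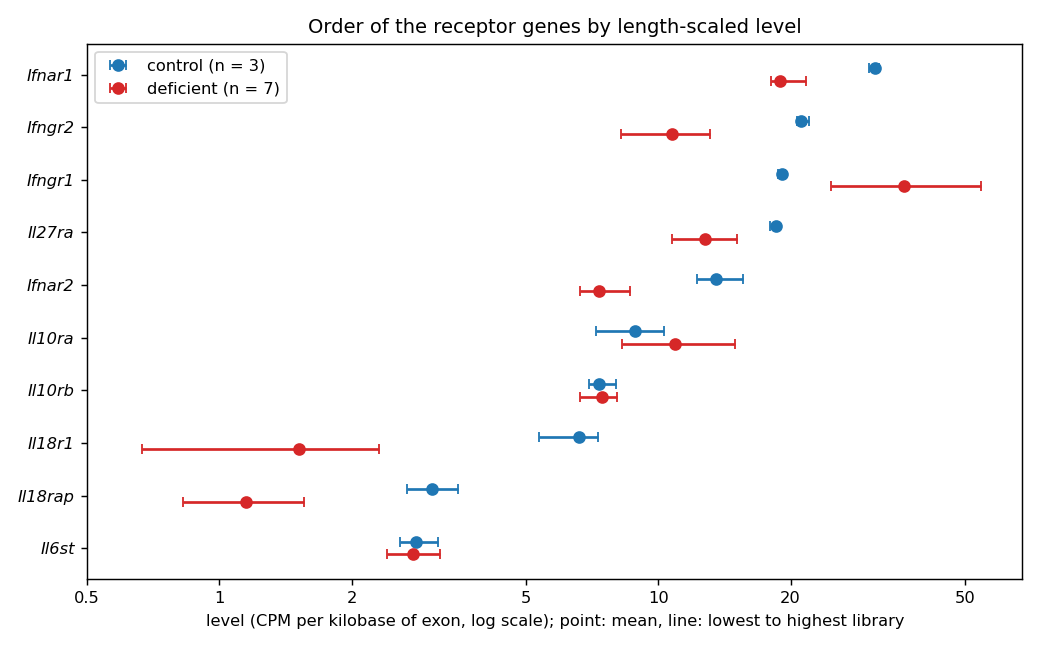
Mean level of each receptor gene in CPM per kilobase of exon (logarithmic horizontal axis), with a line from the lowest to the highest library, for the 3 control and 7 deficient libraries. Ifnar1 led in controls at 31.2 and Ifngr1 in deficient cells at 36.3, while Il18r1 and Il18rap were lowest in deficient cells.

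The ratio of the chains of a receptor within a library does not depend on its depth or scaling. It differed between the diets for 3 of the 5 receptors. With 58.0% of all genes tested differing, ratios of other gene pairs may differ too, and their share was not computed. The permutation test took no account of batch. The level of Ifngr1 over that of Ifngr2, each per kilobase, was 0.939, 0.897 and 0.873 in the controls. In deficient libraries 1 to 7 it was 3.35, 2.87, 2.38, 2.77, 4.14, 3.93 and 3.84. The 2 chains were thus at about the same level in controls, and Ifngr1 was above Ifngr2 in each deficient library. On the log2 scale the ratio differed by 1.85 (two-sided exact permutation p = 0.00833, the lowest value possible with 120 splits, and 0.0139 adjusted over the 5 pairs; higher in 7 of 7 deficient libraries than in any control), and by 1.73 within batch 1. Il18r1 over Il18rap, per kilobase, was 2.16 ± 0.216 (SD, n = 3) in controls and 1.29 ± 0.288 (SD, n = 7) in deficient cells, a log2 difference of -0.77 (exact permutation p = 0.00833, adjusted 0.0139; lower in 7 of 7), and -0.85 within batch 1. Thus Il18r1 fell more than Il18rap, and in deficient library 5 the ratio was 0.710, the only library with less Il18r1 than Il18rap per kilobase. Il27ra over Il6st was 6.62 ± 0.576 (SD, n = 3) and 4.63 ± 0.380 (SD, n = 7), a log2 difference of -0.52 (exact permutation p = 0.00833, adjusted 0.0139; lower in 7 of 7), and -0.64 within batch 1. Il10ra over Il10rb was 1.21 ± 0.157 (SD, n = 3) and 1.46 ± 0.345 (SD, n = 7), a log2 difference of 0.25 that did not pass (exact permutation p = 0.308, adjusted 0.308), and 0.20 within batch 1. In 3 deficient libraries, numbers 5 to 7, this last ratio was 1.99, 1.70 and 1.71, above all other libraries. Within batch 1, where 21 splits allow no p below 0.0476, the 3 ratios that differed over all libraries did not pass (exact permutation p = 0.0476, 0.0952 and 0.0476, adjusted 0.119, 0.159 and 0.119). Without control library 2 the adjusted p of the 3 ratios that differed rose to between 0.0694 and 0.139, with fewer splits, at log2 differences of 1.85, -0.69 and -0.48.

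**Figure D3:**
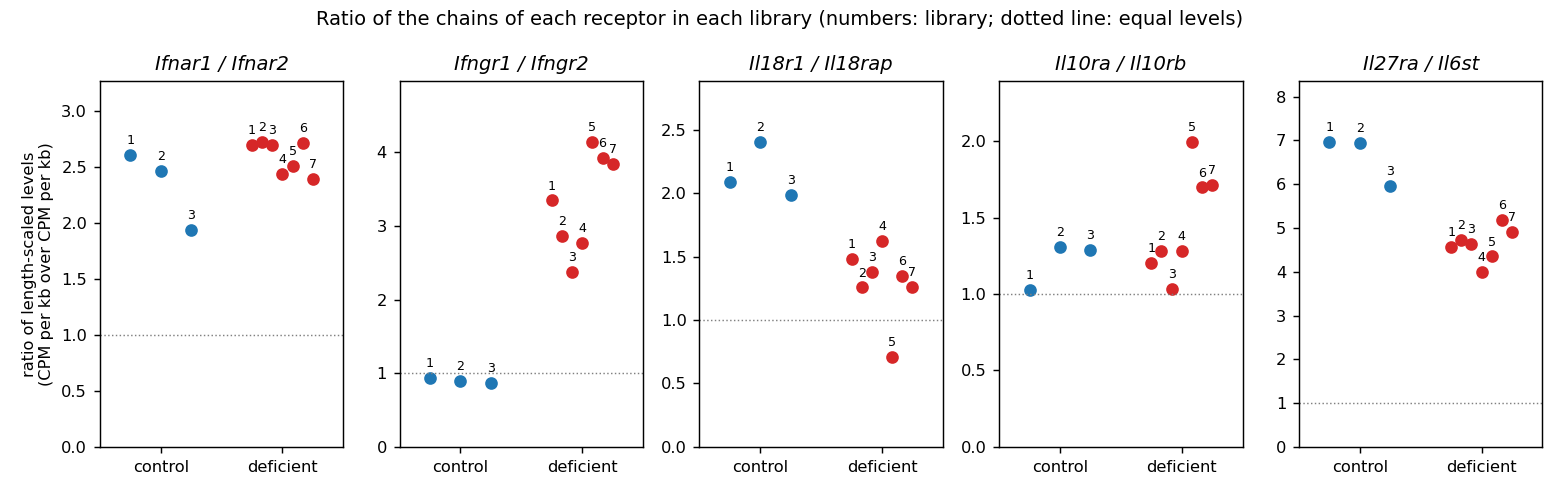
Ratio of the length-scaled levels of the chains of each receptor (CPM per kilobase over CPM per kilobase, vertical axes from 0) in each library, numbered, with a dotted line at equal levels. Ifngr1 over Ifngr2 lies between 0.873 and 0.939 in controls and between 2.38 and 4.14 in deficient libraries, whereas the ratio of Ifnar1 to Ifnar2 overlaps between the groups.

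Several of the genes are neighbours in the genome. Ifnar2, Il10rb, Ifnar1 and Ifngr2 follow each other on the plus strand of chromosome 16, with gaps of 574, 59403 and 39630 bases. Of these 4, 3 fell by 0.81 to 1.06 on the log2 scale, and Il10rb, only 574 bases after Ifnar2, did not pass at -0.06. A gene model named Gm21970 reads through from Ifnar2 to Il10rb and covers 315 exon bases of the first and 569 of the other, but it had 0 counts in all 10 libraries. Reads in those bases could have been left out or split by the counting, which makes the values of Ifnar2 and Il10rb somewhat uncertain: 7.89% and 13.9% of their 50-base stretches also occur in another gene, compared with at most 0.824% for the other 8 genes. On chromosome 1, Il18r1 begins 136 bases after the end of Il1rl1, which encodes the receptor of the alarmin IL-33, and Il18rap lies 14507 bases further on, all on the plus strand. Il1rl1 fell from 23.4 ± 9.53 CPM (SD, n = 3) to 2.82 ± 1.65 CPM (SD, n = 7; log2 fold change -3.09, SE 0.450, adjusted p = 0.000367, edgeR). These 3 neighbours all fell, but not in the same order among the deficient libraries: Il1rl1 was highest in libraries 5, 6 and 7, at 5.85, 4.02 and 3.05 CPM, where Il18r1 was lowest. Further upstream, Il1rl2 and Il1r1 were tested and did not pass, at 0.20 and 1.52 on the log2 scale. Il1rl2 stood at 1.98 ± 0.537 and 2.42 ± 0.842 CPM (SD, n = 3 and 7) and Il1r1 at 0.226 ± 0.265 and 0.676 ± 0.330 CPM (SD, n = 3 and 7).

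**Figure D4:**
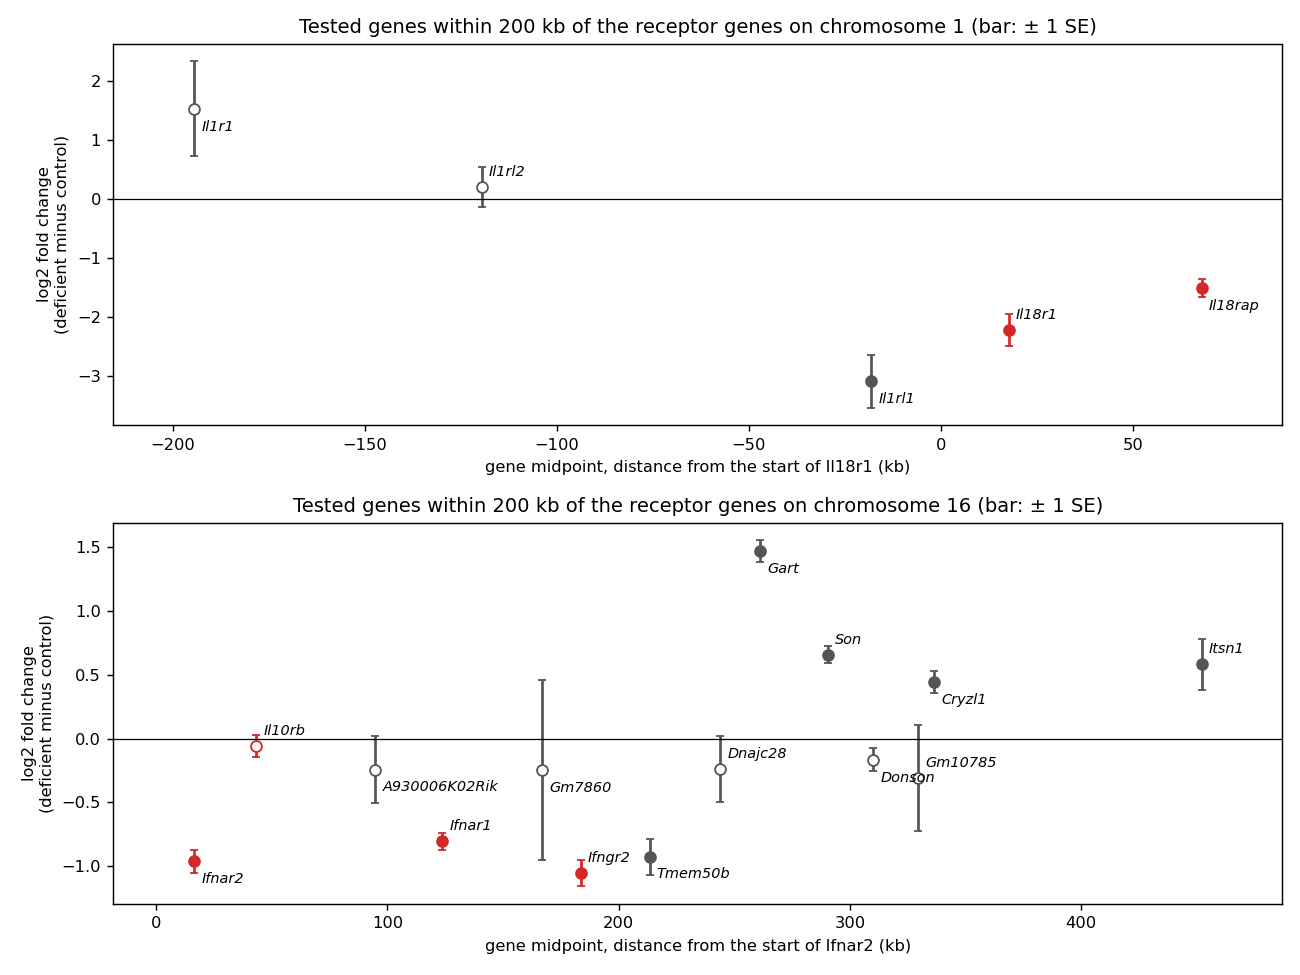
Log2 fold change (deficient minus control, bar ± 1 SE) of the tested genes within 200 kb of the IL-18 receptor genes on chromosome 1 and of the interferon and IL-10 receptor genes on chromosome 16, against the distance of the gene's midpoint from the start of Il18r1 or Ifnar2 in kb. Red marks the receptor genes and filled points passed the test; Il1rl1, Il18r1 and Il18rap lie at -3.09, -2.22 and -1.52.

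To show which other genes had like patterns, each receptor gene was compared with the protein-coding genes of at least 5 CPM on average, 9420 in all, by the root mean square difference of log2(CPM + 1) values centred over the 10 libraries. The nearest gene to Ifngr1 was Gbp7, a guanylate-binding protein gene, at 0.128. Gbp7 read 17.6, 14.9 and 17.2 CPM in the controls, 22.3 to 25.7 CPM in deficient libraries 1 to 4 and 39.9, 36.0 and 39.5 CPM in libraries 5 to 7. Its levels therefore had the same 3 steps as those of Ifngr1. Il10ra was nearest to Tbc1d2b, at 0.105, which also read highest in libraries 5 to 7, at 44.2 to 46.3 CPM. Il18rap was nearest to Ddx19a, an RNA helicase gene, at 0.0952, and Il18r1 to the histone gene Hist3h2ba, at 0.212, the loosest of the 10 matches. The controls held 26.9 to 31.3 CPM of Hist3h2ba, and deficient libraries 5, 6 and 7 held 2.64, 3.20 and 5.75 CPM, the lowest values of their group. Ifnar1 was nearest to Tgfbr2, a receptor gene of TGF-beta, at 0.0534, and Ifnar2 to Heatr5b, at 0.0797. Ifngr2 was nearest to Msmo1, a gene of cholesterol synthesis, at 0.0693. Il27ra was nearest to Myl12b, a myosin light chain gene, at 0.0670, Il10rb to Stard3 at 0.0542 and Il6st to Rnf130 at 0.0501. All points share their libraries, and with so many genes differing between the diets a near pattern is a description only.

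Between the batches, the fitted log2 differences of the 10 genes (batch 2 minus batch 1) ran from -0.44 for Il18r1 to 0.40 for Il10ra. Of the 10, 0 passed (edgeR; 2 at an unadjusted p below 0.05, lowest adjusted p 0.629), beside 0% of all 13699 genes tested (1038 at an unadjusted p below 0.05, and 0 by limma-voom). In a fit with the product of diet and batch, 0 of the 10 had a diet difference that differed between the batches (edgeR; 0 at an unadjusted p below 0.05, lowest adjusted p 0.947), beside 0% of all genes tested (565 at an unadjusted p below 0.05, and 0 by limma-voom). The term was largest for Ifngr1, at 0.49 (SE 0.580, adjusted p = 0.949), and passed at 0.75 without deficient library 5 (adjusted p = 0.0147). With 1 control library in batch 2, this fit has little power, and a missed threshold does not show that the batches were alike.

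Around the receptors, the ligand genes that passed all rose. Of 22 ligands and soluble antagonists listed, 11 were tested, and 6 rose and 0 fell, with a median log2 fold change of 0.73, against a background of 29.4% of all genes higher; without deficient library 3, 1 fell. Ifng rose from 4.48 ± 2.77 to 106 ± 69.5 CPM (SD, n = 3 and 7; adjusted p = 0.00245). Il6, the cytokine that signals through gp130, rose from 2.60 ± 1.34 to 29.8 ± 4.60 CPM (adjusted p = 1.20e-07, edgeR). Il11, of the same family, rose from 0.337 ± 0.345 to 2.16 ± 0.814 CPM (adjusted p = 0.00204, edgeR). Few reads carry the change of Il11, with none in control library 3. Il10, among those that did not pass, read 12.9 ± 1.88 and 14.2 ± 5.66 CPM. Ifnb1 and Ifna4, genes of type I interferons, had 0 counts in every library. Ifna2 and Ifnk, also of this type, had 6 and 2 counts over all libraries and were not tested.

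Among 13 related receptor chains that were tested, 4 rose and 3 fell, with a median log2 fold change of 0.33; these shares are near the 29.4% higher and 28.6% lower of all genes tested. Il12rb2, the signalling chain of the IL-12 receptor, rose from 11.1 ± 1.87 to 103 ± 43.8 CPM (SD, n = 3 and 7; adjusted p = 0.000369), and its partner Il12rb1 from 81.9 ± 5.89 to 147 ± 13.8 CPM. Il12rb2 was highest in deficient libraries 5 to 7, at 158, 156 and 131 CPM, like Ifngr1. Crlf2, a chain of the receptor of the alarmin TSLP, rose by 0.66 on the log2 scale. Besides Il1rl1, the IL-1 decoy receptor gene Il1r2 fell from 11.3 ± 1.66 to 3.90 ± 1.17 CPM, and Il6ra, the chain that binds IL-6, fell by 0.94 on the log2 scale.

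Of 7 genes listed as kinases and STATs that these receptors use, 4 fell and 1 rose, with a median log2 fold change of -0.48. The list also holds Irf9, which is neither a kinase nor a STAT. Irf9 was close to the threshold, at 0.41 on the log2 scale (adjusted p = 0.0510, edgeR). Of all genes tested, 28.6% fell and 29.4% rose. Jak2, a kinase of the interferon-gamma receptor, fell by 0.75 on the log2 scale, Jak1, which serves every JAK-dependent receptor here, by 0.48, and Stat4, the STAT of IL-12, by 0.67. Tyk2 rose by 0.23 on the log2 scale. Without control library 1, 0 of the 7 rose, and 2 rose without deficient library 1, 4 or 5. The signalling adaptors of the IL-18 receptor had 5 of 15 lower and 2 higher (median -0.03), where 28.6% of all genes tested were lower and 29.4% higher, and 3 lower without control library 1. Among them Mapk14, which encodes p38, fell by 0.50, the ubiquitin ligase gene Traf6 by 0.33 and the kinase gene Irak4 by 0.53, while Nfkb1 and Irak2 rose by 0.24 and 0.29. Feedback inhibitors and phosphatases had 3 of 14 higher and 4 lower (median -0.09), beside the same shares of all genes, and 1 higher without control library 2. Pias2, an inhibitor of activated STATs, fell by 0.76, the SOCS family gene Cish by 0.62 and the phosphatase gene Ptpn2 by 0.48. Socs2, Isg15 and Ptpn11 rose by 0.39, 1.30 and 0.19. Few reads carry the change of Isg15, whose mean CPM moved from 0.537 to 1.42.

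Of 23 interferon-gamma target genes tested, 17 rose and 1 fell, with a median log2 fold change of 1.14. Of all genes tested, 29.4% rose and 28.6% fell, and the same shares apply to the lists that follow. Without deficient libraries 5 to 7, 13 of these target genes rose, all of them among the 17, and without control library 3, 9 rose. Nlrc5, the activator of MHC class I genes, rose by 2.44 on the log2 scale, the peptide transporter gene Tap1 by 1.14 and Cd274, which encodes PD-L1, by 0.68. Tapbp, of the same peptide-loading complex, fell by 0.24; 0 of the list fell when control 1 or 2 or deficient library 1, 2, 3, 4 or 6 was left out. Of 23 type I interferon target genes tested, 13 rose and 3 fell, with a median of 0.88. Without deficient libraries 5 to 7, 9 rose, 8 of them among the 13, and without control library 3, 8 rose. Several of the 13 were near 0 in controls and so could hardly have been called lower. Their control means were 0 CPM for Ifi44, 0.216 for Rsad2, 0.529 for Isg20, 0.537 for Isg15 and 0.541 for Cmpk2. Among the interferon-gamma targets that rose, control means were 0.111 CPM for Iigp1, 0.155 for Ciita and 0.167 for Gbp6. At a minimum count of 50, 8 type I targets rose. Eif2ak2, the antiviral kinase PKR, rose by 1.26, Bst2, which encodes tetherin, by 0.88 and the nucleic acid sensor gene Zbp1 by 2.02. Ifi27l2a fell from 318 ± 3.77 to 77.2 ± 9.60 CPM (SD, n = 3 and 7; adjusted p = 1.73e-11), and the sensor gene Ddx58 and Ifit2 fell by 0.48 and 0.35 on the log2 scale. Of 23 STAT3 target genes, 2 rose and 6 fell, with a median of -0.02, and 1 rose without control library 2. The share that fell was near the 28.6% of all genes tested. The checkpoint receptor gene Havcr2 rose by 4.48 and Prdm1, which encodes Blimp-1, by 1.97. Few reads carry the change of Prdm1, whose mean CPM moved from 0.327 to 1.41, with none in control library 2. Zfp36, Ahr and Fgl2 fell by 1.27, 1.29 and 1.39. Some genes stand in more than 1 of these lists. The marker sums of CD8 T and B cells, given above with Ifngr1, were highest in deficient libraries 5 to 7. So was the summed level of the interferon-gamma targets. Control library 3, with a B cell sum of 50.4 CPM, had a target sum of 1850 CPM, the highest of the 3 controls. The target sum was 1720 to 1850 CPM in controls, 2892 to 3437 CPM in deficient libraries 1 to 4 and 4462 to 4586 CPM in libraries 5 to 7. A large part of it was B2m alone, at 581 to 662 CPM in controls. B2m read 1304 to 1678 CPM in deficient libraries 1 to 4 and 1945 to 2051 CPM in libraries 5 to 7. The part of other cells in the target sum was not tested.

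**Figure D5:**
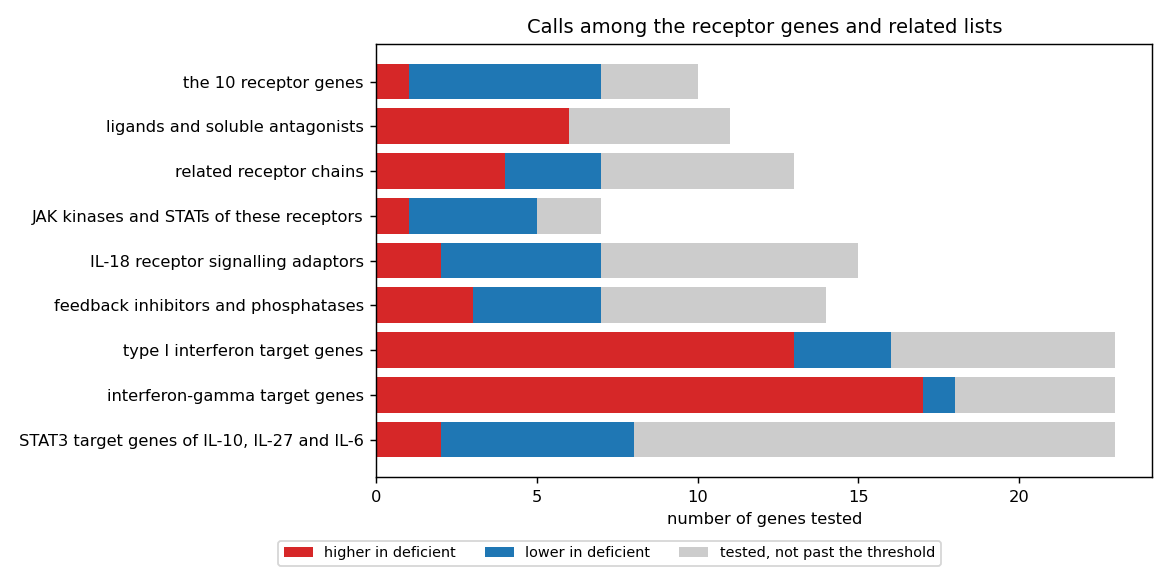
Number of genes tested in the 10 receptor genes and in 8 lists of related genes (horizontal axis), split into those higher in deficient cells (red), lower (blue) and tested without passing the threshold (grey). Of the receptor genes 6 fell and 1 rose, while 17 of 23 interferon-gamma target genes rose. Of all genes tested, 28.6% fell and 29.4% rose.

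As context, Vdr, the vitamin D receptor gene, fell from 10.6 ± 0.657 to 3.73 ± 1.65 CPM and Gata3, the TH2 factor, from 62.0 ± 4.49 to 36.7 ± 3.95 CPM, while Tbx21, the TH1 factor T-bet, rose from 0.822 ± 0.333 to 38.0 ± 4.28 CPM (SD, n = 3 and 7; adjusted p = 0.000156, 3.33e-06 and 1.96e-11, edgeR). Other cell types were measured through their markers. NK cell markers (Ncr1, Klrb1c and Klra8) summed to 0.641 to 2.79 CPM in controls and 0.782 to 4.84 CPM in deficient cells, with Klra8 at 0 in all 3 controls. Macrophage and monocyte markers summed to 13.9 to 14.8 and 4.69 to 6.57 CPM, most of it Cd68, which fell by 1.88 on the log2 scale. Adgre1, the other tested marker of this list, rose by 1.44, from a mean of 0.315 to 0.899 CPM, on few reads. Dendritic cell markers summed to 1.44 to 4.18 and 1.28 to 4.17 CPM, and neutrophil markers to at most 0.160 and 0.711 CPM. The CD8 and B cell sums stand with Ifngr1. The part of other cells in the levels of the receptor genes was not tested.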

How the data were processed

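The authors deposited 1 table of raw read counts per Ensembl gene, with a column for each of the 10 libraries. Per the labels' protocols, total RNA was made into strand-specific libraries with an Illumina TruSeq globin kit. STAR 2.7.10a, HTSeq 0.13.5 and GRCm38 are named in the submitters' processing notes; the strand setting and annotation release were not given in the sources used here. Total RNA also yields unspliced RNA, and reads that fit several genes may be lost.

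Symbols, exon lengths and coordinates were taken from GENCODE M21 (GRCm38), which matched 49412 of 49671 IDs; the rest held 0.0226% of all counts. Genes kept by filterByExpr (minimum count 10) were scaled by TMM and tested in R 4.3.3 with edgeR 4.0.16 (glmQLFit, robust, and glmQLFTest) on diet and batch over all 10 libraries, and p-values were adjusted by Benjamini-Hochberg over 13699 genes with a threshold of 0.05. The biological coefficient of variation was 12.7%. Levels are CPM on plain library totals, and SE come from the fit. Chain ratios were compared by two-sided exact permutation over 120 splits. Depth ran from 5800698 to 13433276 counts per library and sets the precision of low genes. Replicate pairs differed by more than sampling noise (chi-square per gene 2.82 to 49.9), and replicate numbers follow accession order. The fit was tested on simulated counts.

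The members and lists were chosen with earlier results of these data known. A few listed genes are not reported here and were left out of the list counts and sums. Named are all 10 members, and up to 3 genes per list and direction with the smallest adjusted p and at least 1 CPM. Also named are the nearest pattern of each member among protein-coding genes of at least 5 CPM, and Vdr, Gata3, Tbx21 and Ifng as context. Others were chosen after their values were seen (Il10, Il4, B2m, Ifnb1, Ifna4, Il1rl2, Il1r1 and the genes of the loci). So were Ifna2, Ifnk, Irf9, Adgre1, Cd3d, Cd3g, Ifi44, Rsad2, Isg20, Cmpk2, Iigp1, Ciita and Gbp6. Alternatives were other scalings, filters, tools (DESeq2 1.42.0, limma 3.58.1), no batch term, each batch alone, sex as a term (Xist above 50 CPM), removal of RNA classes such as ribosomal and haemoglobin genes, pseudocounts for the ratios and leaving out each library; the fit without deficient libraries 5 to 7 was added after the data were seen. Figures were drawn with matplotlib 3.10.9.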

Additional observations from a re-analysis of the deposited data

Results flagged for a closer look

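Among the 15 groups of 7 deficient values examined (10 receptor genes and 5 chain ratios), 2 held a library whose gap to the nearest other was large for the range of its group, and chance gives about 1 in 20. Ifnar1 in deficient library 5 read 129 CPM, where the other 6 read 107 to 116 CPM; it still lay below every control. The log2 ratio of Il18r1 to Il18rap, on plain CPM, was -0.98 in deficient library 5, where the other 6 read -0.16 to 0.21. Il18r1 had 40 counts in that library.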

How the results depend on the processing

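Over the alternatives, 233 of 240 values of the 10 fold changes kept their direction where called and their side of the threshold, and 6 genes fell under every alternative. The exceptions were Ifngr1 and Il10ra. The count of members that rose, 1, became 0 within batch 1 alone, and ranged from 0 to 1 when single libraries were left out. Ifngr1 missed the threshold without the filter on low counts (0.95, adjusted p = 0.0589) and within batch 1 alone (0.69), and its change ranged from 0.68 to 0.94 with single libraries left out; over all alternatives its adjusted p ran from 4.57e-08 to 0.168. Il10ra passed without the filter (0.34, adjusted p = 0.00952), and its adjusted p ran from 0.00952 to 0.977. Il10rb and Il6st, which passed nowhere, changed sign with the setting (from -0.09 to 0.05 and from -0.22 to 0.00). The diet-by-batch term of Ifngr1 ranged from 0.37 to 0.75 with single libraries left out. Within batch 1 alone, where they did not pass, the log2 ratios of Ifngr1 to Ifngr2, Il18r1 to Il18rap and Il27ra to Il6st differed by 1.73, -0.85 and -0.64; with single libraries left out they ranged from 1.80 to 1.93, from -0.83 to -0.63 and from -0.59 to -0.48. Where no cause is named, the cause was not tested.

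Scaling by library totals moved the median of all genes to 0.10 and dropping the filter moved it to 0.19, from 0.02. Counts in the related lists that moved by over 1.5 times were as follows. In the list of kinases, STATs and Irf9, the count that rose went from 1 to 2 under several settings. These were median-of-ratios, upper-quartile and library-total scaling, DESeq2, sex as a term, no robust estimation and either other filter on low counts. Interferon-gamma targets that rose went from 17 to 9 within batch 1, and the 1 that fell became 0 with upper-quartile scaling, library totals, no filter, limma-voom, no batch term, batch 2 alone and sex as a term, and 2 without deficient libraries 5 to 7. Type I targets that rose went from 13 to 8 within batch 1 and at a minimum count of 50. Ligands that rose went from 6 to 3 at a minimum count of 50, and 1 fell, in place of 0, without the filter, within batch 2 and without deficient library 3. STAT3 targets that rose went from 2 to 7 without the filter, 5 within batch 2 and 1 at a minimum count of 50. Feedback genes that rose went from 3 to 5 without the filter and 1 within batch 1, and IL-18 adaptors that fell from 5 to 3 in both. No paired analysis was possible because the labels give no replicate numbers.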

Other observations

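Within 200 kb of the receptor genes on chromosome 16, 5 of 10 other tested genes passed, where 58.0% of all genes tested did. Next to Ifngr2, Tmem50b fell from 27.8 ± 2.16 to 15.6 ± 2.80 CPM (SD, n = 3 and 7; log2 fold change -0.93, adjusted p = 4.92e-05, edgeR). Gart, an enzyme gene of purine synthesis, rose from 52.6 to 155 CPM in the means (log2 fold change 1.47, SE 0.0864, adjusted p = 2.24e-09), and Son, which encodes a splicing factor, from 264 ± 16.3 to 443 ± 28.8 CPM (adjusted p = 5.87e-07). Cryzl1 and Itsn1 rose by 0.44 and 0.58 on the log2 scale. These neighbours were chosen by position after the data were seen.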
